A study of Homo sapiens with 6 samples.

Results

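The genes described here form, sense, take up or remove extracellular adenosine: NT5E, the ecto-5′-nucleotidase also called CD73, the alkaline phosphatases ALPP, ALPI and ALPL, the ecto-nucleoside triphosphate diphosphohydrolases ENTPD2 and ENTPD3, the adenosine receptor ADORA2B, the enzymes ADA and ADK, and the nucleoside transporter SLC29A1. They are 10 of the 58735 genes, 19951 of them protein-coding, in a table of expression values, and were picked by gene name after the difference between these same libraries was known. Their values in this comparison are therefore a description, and no p-value is given for them. RNA was sequenced from NCI-N87, a human gastric cancer line with an amplified ERBB2 gene, in 6 libraries. In the 3 shNC libraries the cells carried a lentiviral control vector, which the study's methods describe as empty, and in the 3 shScamp1 libraries they carried a lentivirus with an shRNA against SCAMP1, a membrane protein of secretory vesicles and endosomes. All cells of both groups were infected with polybrene and selected with puromycin at 2 μg/ml, so that each group was a stable population, and only 1 SCAMP1 shRNA was sequenced. The labels call the libraries biological replicates, but no source used here says that they came from separate infections, so that the p-values measure the spread between these libraries.

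ATP and ADP outside the cell are cut to AMP by enzymes of the ENTPD and ENPP families. AMP is then dephosphorylated to adenosine by NT5E, which a GPI anchor holds on the outer membrane leaflet, and by the membrane alkaline phosphatases. Adenosine acts on G protein-coupled receptors, of which ADORA2B is a low-affinity receptor that raises cAMP, and it is removed by uptake through transporters such as SLC29A1, by deamination to inosine through ADA, and by phosphorylation to AMP through ADK. In tumours this pathway is best known for dampening immune cells.

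Values are FPKM, fragments per kilobase of gene length, nominally scaled to sequencing depth and used on the deposited scale of each library. Changes are log2 fold changes of shScamp1 over shNC on log2(FPKM + 0.1). A gene was tested where its mean was at least 0.5 FPKM, and it passed where limma's Benjamini-Hochberg adjusted p was under 0.05. The libraries held 14311769 to 15988700 reads on genes. SCAMP1 itself stood at 12.6, 12.1 and 11.5 FPKM in the shNC libraries and at 1.70, 1.37 and 1.99 in the shScamp1 libraries, 86.0% lower (adjusted p = 0.000248, limma). shScamp1 replicate 2 stood apart, with 9.21% of its reads on mitochondrial genes against 6.09% to 6.78% in the other libraries. Its mean absolute log2 difference from the other shScamp1 libraries was 0.491 and 0.447, against 0.281 between those. The part of this library in the results was not tested beyond leaving it out. Of 8 epithelial and NCI-N87 markers 6 rose, where 8.82% of all genes tested did, among them KRT8, KRT18 and KRT19. KRT8, KRT18 and CEACAM5 passed in all 6 fits that left out 1 library, while KRT19 did not pass without shNC replicate 1 or 2, and CDH1 and CLDN4 did not without any shNC library or shScamp1 replicate 3. The summed FPKM of the list ran from 5536 to 5822 in shNC and from 9250 to 10164 in shScamp1. EPCAM was at 153 and 148 FPKM and ERBB2 at 1235 and 1382 FPKM, and neither passed. Fibroblast and mesenchymal markers summed to 2.67 to 2.97 FPKM in shNC and 2.28 to 3.19 in shScamp1 over 10 genes, with PDGFRA, COL1A2, LUM and DCN at 0 in all libraries. Leukocyte markers summed to 0.931 to 1.14 and 0.997 to 1.12 FPKM over 9 genes, with MS4A1 at 0 in all libraries. Endothelial markers summed to 0.169 to 0.264 and 0.412 to 0.634 FPKM over 5 genes. Most of that sum was VWF, at 0.172 and 0.444 FPKM on 24 to 82 reads, and the others had at most 4 reads in a library. In bulk RNA, fewer cells of a type and less RNA per cell cannot be told apart.

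NT5E (ENSG00000135318, GRCh38 chr6:85449584-85495791, plus strand) makes most of the adenosine formed from AMP on many cells. It stood at 6.37, 6.24 and 5.998 FPKM in the shNC libraries, and at 48.3, 51.1 and 48.7 FPKM in the shScamp1 libraries. All 3 shScamp1 libraries lay far above all 3 shNC libraries, and the spread within each group was small, with means of 6.20 ± 0.189 and 49.3 ± 1.54 FPKM (SD, n = 3). This was a 7.96-fold difference and a log2 fold change of 2.97 (SE 0.06). It rested on 420 to 471 reads per shNC library and 3171 to 3227 reads per shScamp1 library. Among the protein-coding genes above 0 FPKM in a library, NT5E stood at percentiles 61.5 to 63.1 in shNC and 94.97 to 96.1 in shScamp1. By log2 fold change it ranked 24 of the 15556 genes tested, and 4 of the 7055 that averaged 5 FPKM or more. Leaving out each library in turn gave log2 fold changes of 2.95 to 2.99.

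The promoter windows of NT5E and ALPP are shown because both genes were higher in all 3 shScamp1 libraries. Those of ALPG and ALPI, which lie near ALPP on chromosome 2, are shown beside them. Each is a RefSeq window on GRCh38.p14, from 250 bases before to 50 after the start site, plus strand, with capitals marking matches to the motifs searched.
NT5E: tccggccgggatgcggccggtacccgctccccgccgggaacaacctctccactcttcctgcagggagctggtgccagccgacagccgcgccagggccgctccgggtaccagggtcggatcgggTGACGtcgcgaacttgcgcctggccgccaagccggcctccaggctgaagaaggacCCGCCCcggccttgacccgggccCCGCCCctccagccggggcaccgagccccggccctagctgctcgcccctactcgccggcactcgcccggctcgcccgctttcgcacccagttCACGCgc
ALPP: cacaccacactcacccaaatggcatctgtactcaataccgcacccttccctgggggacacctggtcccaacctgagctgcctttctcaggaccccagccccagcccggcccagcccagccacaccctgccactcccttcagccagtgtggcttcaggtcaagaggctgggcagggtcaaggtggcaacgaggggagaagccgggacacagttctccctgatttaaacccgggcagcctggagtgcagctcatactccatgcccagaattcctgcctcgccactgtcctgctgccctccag
ALPG: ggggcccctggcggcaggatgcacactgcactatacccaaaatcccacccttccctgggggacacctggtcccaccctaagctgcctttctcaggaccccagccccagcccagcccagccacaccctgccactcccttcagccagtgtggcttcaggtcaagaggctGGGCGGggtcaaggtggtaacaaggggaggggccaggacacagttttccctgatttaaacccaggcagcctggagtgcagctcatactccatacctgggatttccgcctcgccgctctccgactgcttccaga
ALPI: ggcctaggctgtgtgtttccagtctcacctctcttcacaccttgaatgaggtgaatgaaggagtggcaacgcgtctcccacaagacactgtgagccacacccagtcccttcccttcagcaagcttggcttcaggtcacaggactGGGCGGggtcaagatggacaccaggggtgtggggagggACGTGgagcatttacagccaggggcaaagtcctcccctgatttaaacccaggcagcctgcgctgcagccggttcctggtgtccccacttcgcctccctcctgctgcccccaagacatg

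The NT5E window, chr6:85449833-85450132, has a GC content of 75%, against a median of 58.7% over the 35116 promoters of the table, and its start site lies 499 bases inside the listed gene. Read on both strands, it holds 2 GC boxes (GGGCGG, here as CCGCCC) that begin 72 and 49 bases upstream of the start site, 1 cAMP response element core (TGACG) beginning 127 bases upstream, and 1 hypoxia response element core of the form GCGTG after the start site. These letters occur in 44.95%, 24.6% and 36.5% of all promoters. The ALPP window, chr2:232378501-232378800, holds none of the motifs searched, which also included the AP-1 site TGANTCA (7.71% of promoters), the other hypoxia core ACGTG (21.4%) and the interferon-stimulated response element (3.57%). The ALPG window, chr2:232406594-232406893, is 86.7% identical to that of ALPP over 293 aligned bases and has 1 GC box. The ALPI window, chr2:232455903-232456202, is 70.3% identical to that of ALPP and has 1 GC box and 1 ACGTG. The window of ADORA2B, which was lower in shScamp1, held the same counts as that of NT5E: 2 GC boxes, 1 TGACG and 1 GCGTG. Its GC content was 75.7%. The windows of ADA and ENTPD2, also at lower means in shScamp1, had 79.3% and 80% GC and 5 and 8 GC boxes. These letters and a high GC content were therefore not particular to the genes that were higher. A match is a description of letters, not of a bound site.

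ALPP (ENSG00000163283, chr2:232378534-232382889, plus strand), the placental alkaline phosphatase, is another GPI-anchored enzyme that can release phosphate from AMP. It stood at 26.4, 28.0 and 27.4 FPKM in the shNC libraries and at 84.3, 88.02 and 81.7 FPKM in the shScamp1 libraries. The groups did not overlap, and the means were 27.3 ± 0.776 and 84.7 ± 3.18 FPKM (SD, n = 3), a 3.10-fold difference and a log2 fold change of 1.63 (SE 0.06). ALPP was the most abundant of the 10 genes in both groups. Its transcript is 91.6% identical to that of ALPG, the germ-cell alkaline phosphatase, in their best local alignment, and 24.5% of the 50-base windows of ALPP transcripts also occur in ALPG, so that reads of the pair may have been split or lost in counting. The summed FPKM of ALPP and ALPG was 50.02 ± 2.46 in shNC and 121 ± 1.68 in shScamp1 (SD, n = 3). The antisense gene AC068134.1 also overlaps ALPP, and counting by strand is not stated in the sources used here. By the same window count NT5E shared 0 of 3869 windows with any other gene.

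ALPI, the intestinal phosphatase (chr2:232456123-232460032), and ALPL, the tissue-nonspecific phosphatase (chr1:21509372-21578412), were at the floor of detection. ALPI had 1, 2 and 0 reads in the shNC libraries and 0, 2 and 0 in the shScamp1 libraries, and ALPL had 1, 2 and 0 against 1, 0 and 1. A count of 3 reads corresponds to at most 0.0833 FPKM for ALPI and 0.0729 FPKM for ALPL. Neither gene was tested, and no difference was detectable at this depth.

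**Figure D1:**
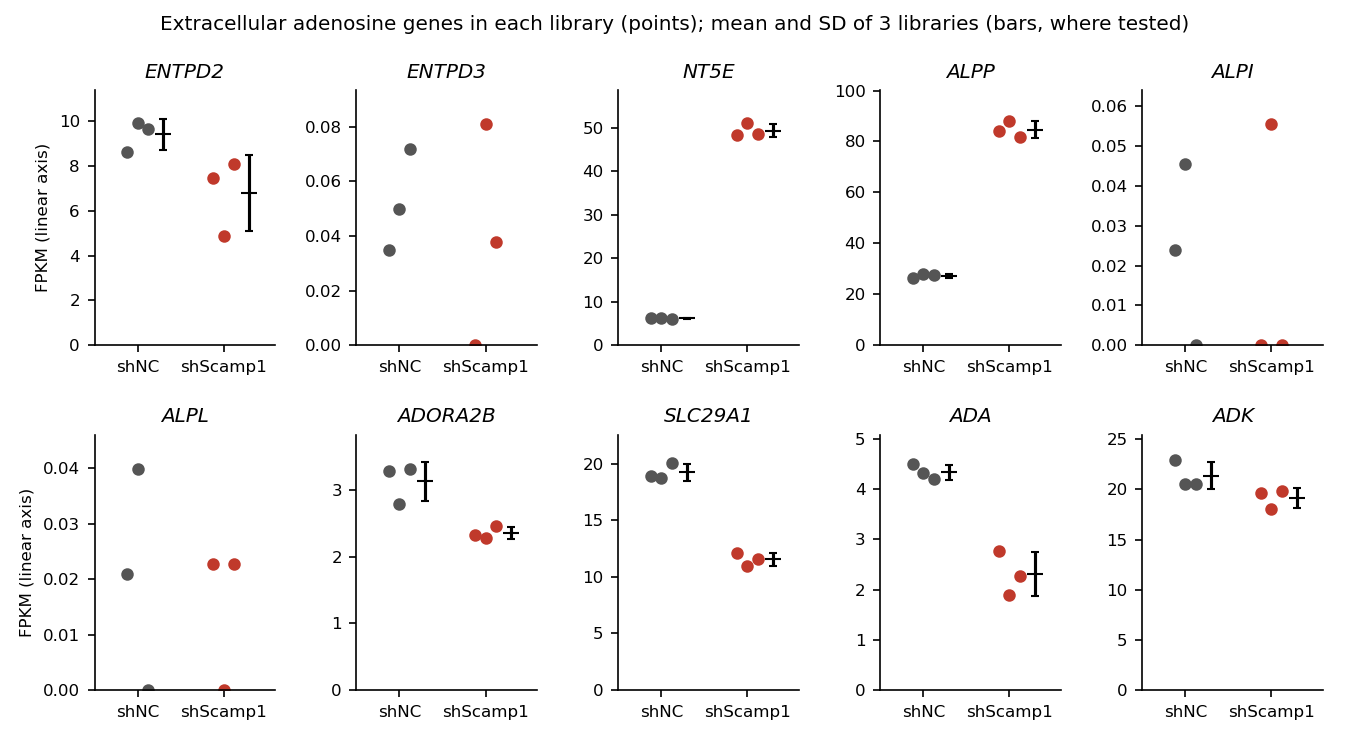
FPKM of each of the 10 genes on a linear axis of its own, with a point for each of the 3 shNC (grey) and 3 shScamp1 (red) libraries and, for the 7 tested genes, bars for the mean and SD. NT5E at 5.998 to 6.37 against 48.3 to 51.1 FPKM and ALPP at 26.4 to 28.0 against 81.7 to 88.02 FPKM are the genes that are higher in shScamp1.

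The enzymes that form adenosine from AMP were also read together, as NT5E, ALPP, ALPI, ALPL, ALPG and the transmembrane acid phosphatase ACPP. Their summed FPKM was 54.1, 56.4 and 58.7 in the shNC libraries and 171, 172 and 168 in the shScamp1 libraries. NT5E made up 11.8%, 11.1% and 10.2% of this sum in shNC and 28.2%, 29.8% and 28.9% in shScamp1, or 11.02% ± 0.777 and 28.98% ± 0.762 (SD, n = 3). The share of ALPP was 48.4% ± 1.46 and 49.7% ± 1.38, and that of ALPG was 40.3% ± 2.09 and 21.2% ± 1.97. NT5E thus took a larger share of the summed level in every shScamp1 library and ALPG a smaller one, while the mean shares of ALPP differed by less than their SD. NT5E was chosen from this contrast, so that its larger share restates the choice. The shares of ALPP and ALPG also depend on how reads of the pair were counted. FPKM sums say nothing of enzyme activity.

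**Figure D2:**
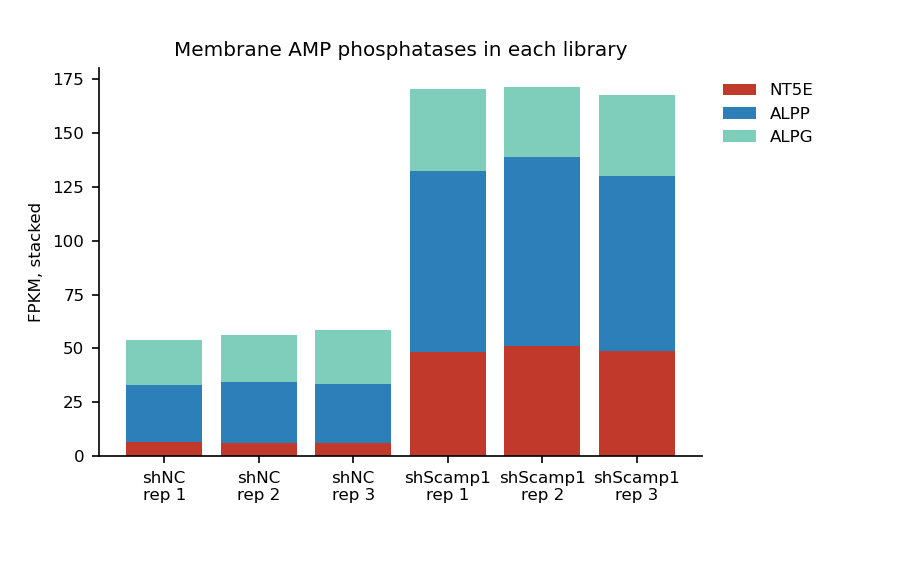
FPKM of NT5E, ALPP and ALPG in each of the 6 libraries, stacked, with the barely detected ALPI, ALPL and ACPP left out of the bars. With those included, the sums run from 54.1 to 58.7 FPKM in shNC and from 168 to 172 FPKM in shScamp1, and NT5E makes up 11.02% of the sum in shNC and 28.98% in shScamp1 on average.

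Upstream of AMP, ENTPD2 (ENSG00000054179, chr9:137048098-137054045, minus strand), a triphosphatase that turns ATP into ADP at the cell surface, was at 8.65, 9.94 and 9.66 FPKM in the shNC libraries and at 7.46, 4.88 and 8.07 FPKM in the shScamp1 libraries. All shScamp1 values were below all shNC values, but shScamp1 replicate 2 was much lower than the other 2. The means were 9.42 ± 0.680 and 6.81 ± 1.69 FPKM (SD, n = 3), with a log2 fold change of -0.49 (SE 0.19), which became -0.27 without that library. ENTPD2 overlaps the antisense gene AL807752.4. ENTPD3 (chr3:40387156-40428744), which also hydrolyses ATP and ADP, had 2, 3 and 4 reads in shNC and 0, 4 and 2 in shScamp1, near its 3-read floor of at most 0.0606 FPKM, and was not tested.

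ADORA2B (ENSG00000170425, chr17:15944917-15975746, plus strand), the receptor of the set, was low in all libraries, at 3.29, 2.80 and 3.32 FPKM in shNC and 2.34, 2.29 and 2.46 FPKM in shScamp1. The groups did not overlap, although the nearest values, 2.80 and 2.46, were close. The means were 3.14 ± 0.293 and 2.36 ± 0.0905 FPKM (SD, n = 3), 24.7% lower, with a log2 fold change of -0.39 (SE 0.10) on 80 to 133 reads per library.

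SLC29A1 (ENSG00000112759, chr6:44219505-44234151, plus strand), the equilibrative transporter that carries adenosine across the membrane, was at 18.9, 18.7 and 20.1 FPKM in the shNC libraries and at 12.1, 10.97 and 11.6 FPKM in the shScamp1 libraries. The shScamp1 values were all well below the shNC values, with means of 19.3 ± 0.722 and 11.6 ± 0.566 FPKM (SD, n = 3), 39.9% lower. The log2 fold change was -0.73 (SE 0.07) on 662 to 1376 reads per library. SLC29A1 and NT5E both lie on chromosome 6, on opposite arms.

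ADA (ENSG00000196839, chr20:44619522-44652233, minus strand), which deaminates adenosine to inosine, was at 4.49, 4.31 and 4.20 FPKM in the shNC libraries and at 2.76, 1.90 and 2.28 FPKM in the shScamp1 libraries. The groups did not overlap, and the shScamp1 libraries varied more among themselves, with means of 4.33 ± 0.146 and 2.31 ± 0.434 FPKM (SD, n = 3). ADA was 46.7% lower in shScamp1, with a log2 fold change of -0.89 (SE 0.14) on 74 to 205 reads. It lies across PKIG on the opposite strand. ADK (ENSG00000156110, chr10:74151185-74709303, plus strand), which phosphorylates adenosine to AMP inside the cell, was at 22.9, 20.6 and 20.6 FPKM in shNC and at 19.7, 18.0 and 19.8 FPKM in shScamp1. The groups were close, at 21.3 ± 1.35 and 19.2 ± 0.978 FPKM (SD, n = 3), with a log2 fold change of -0.15 (SE 0.08).

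The ratio of the level of ADK to that of ADA was 4.92 ± 0.166 in shNC and 8.44 ± 1.22 in shScamp1 (SD, n = 3), so that the kinase mRNA stood further above the deaminase mRNA in the knockdown libraries. The ratio of NT5E to ADA was 1.42 to 1.45 in shNC and 17.5, 27.0 and 21.4 in shScamp1. These genes were chosen from this contrast, so that the ratios restate the choice.

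By mean level the order in shNC was ALPP, ADK, SLC29A1, ENTPD2, NT5E, ADA, ADORA2B, ENTPD3, ALPI and ALPL. In shScamp1 it was ALPP, NT5E, ADK, SLC29A1, ENTPD2, ADORA2B, ADA, ENTPD3, ALPI and ALPL. NT5E moved from rank 5 to rank 2, and the libraries of ADORA2B and ADA overlapped in shScamp1, so that their order there was within the spread. The last 3 genes, with 0 to 4 reads each, cannot be ordered in either group.

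Of the 7 genes tested, 2 (NT5E and ALPP) were past adjusted p 0.05 as higher, where 8.82% of all genes tested were, and 3 (ADORA2B, ADA and SLC29A1) as lower, where 5.17% were. NT5E, ALPP and SLC29A1 stayed past it in all 6 fits that left out 1 library, while ADORA2B and ADA did not. The libraries of the groups did not overlap for 7 of the 7, as for 41.4% of all genes tested. These genes were chosen from this contrast, so that the counts restate the choice and support nothing. The median log2 fold change over all genes tested was -0.02, with 2.5 and 97.5 percentiles of -0.99 and 1.32.

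**Figure D3:**
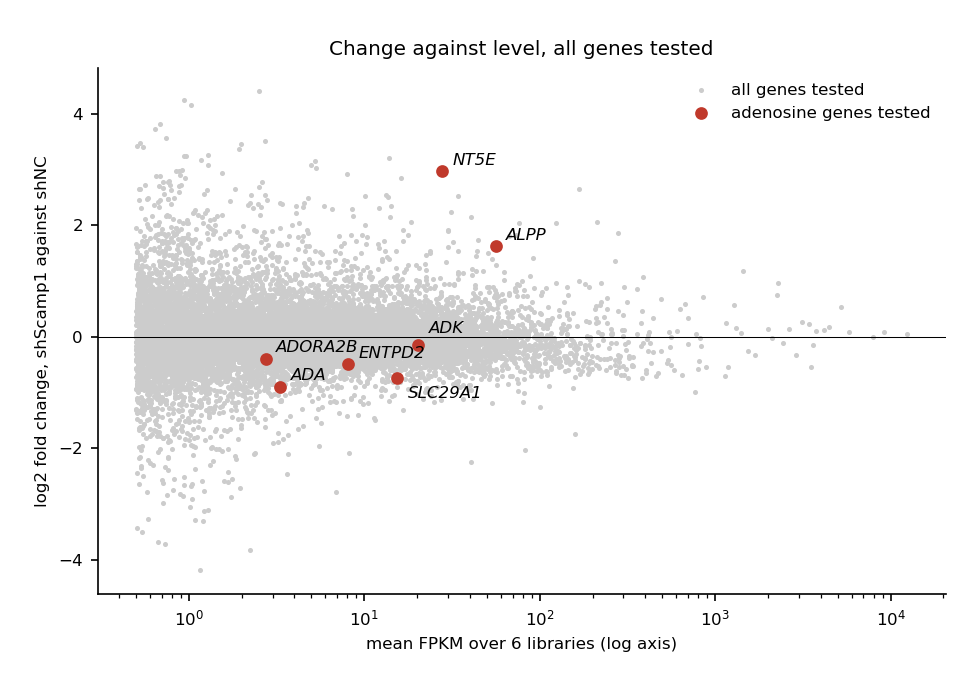
Log2 fold change of shScamp1 over shNC against mean FPKM over the 6 libraries (log axis) for the 15556 genes tested, with the 7 tested adenosine genes marked. NT5E at 2.97 and ALPP at 1.63 lie above the cloud, and ADA at -0.89 and SLC29A1 at -0.73 lie within its lower part.

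Over all genes tested, 8.82% rose and 5.17% fell, and each list count from here on is to be read beside these shares. The lists were written by hand with earlier results of these data known. Their counts and adjusted p-values are therefore a description and not independent support. Among the other cell-surface nucleotidases, 2 of 5 tested genes rose and none fell, with a median log2 fold change of 0.66. ENPP4, which hydrolyses nucleotides on the cell surface, rose from 6.06 ± 0.322 to 10.99 ± 0.226 FPKM (SD, n = 3; log2 fold change 0.85, SE 0.07, adjusted p = 0.0011, limma) and passed in all 6 fits without 1 library. ALPG rose from 21.1, 22.0 and 25.1 FPKM to 38.2, 32.4 and 37.5 FPKM (log2 fold change 0.66, SE 0.10, adjusted p = 0.00915, limma), and its adjusted p was 0.0502 without shNC replicate 1 and 0.0542 without shNC replicate 2. As with ALPP, its reads can be split with its near-identical partner. Its rise was smaller than the ALPP difference, and the ratio of ALPP to ALPG was 1.25, 1.27 and 1.095 in shNC and 2.21, 2.71 and 2.18 in shScamp1. ENTPD1, the ATP and ADP hydrolase CD39, was at 1.33 and 0.977 FPKM and did not pass (adjusted p = 0.115, limma), nor did ENTPD8 (log2 fold change 0.09, adjusted p = 0.742) or ENPP5 (0.70, adjusted p = 0.0582).

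Of 11 tested genes for the release of ATP, 1 rose and 2 fell, with a median log2 fold change of 0.10. PANX2, a pannexin, rose from 1.83 to 6.59 FPKM (log2 fold change 1.79, SE 0.14, adjusted p = 0.000926, limma) and passed in all 6 fits that left out 1 library. The more abundant pannexin PANX1, at 16.2 and 17.8 FPKM, did not pass (log2 fold change 0.13, adjusted p = 0.401, limma). SLC17A9, the vesicular nucleotide transporter, fell from 20.1 to 11.6 FPKM (log2 fold change -0.81, adjusted p = 0.0206, limma), but its adjusted p was 0.0801 to 0.0898 without each shNC library. CALHM2, a channel subunit, fell by 0.49 on the log2 scale (adjusted p = 0.0367, limma), but its adjusted p was 0.0859 to 0.133 without any shNC library or shScamp1 replicate 3. The abundant GJB2 and LRRC8A did not pass, at 0.10 (adjusted p = 0.549) and 0.22 (adjusted p = 0.117).

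None of the 4 tested genes among the other purine receptors passed in limma, with 2 at an unadjusted p under 0.05 and 0 past the threshold with voom. Without shScamp1 replicate 2, 1 passed. The P2 receptors P2RY2 and P2RY11 were at log2 fold changes of 0.21 (adjusted p = 0.144) and -0.30 (adjusted p = 0.0778). ADORA1 and ADORA2A stood under 0.6 FPKM in both groups, at 0.562 and 0.260 FPKM and at 0.195 and 0.126 FPKM, and ADORA3 had 0 reads in all 6 libraries. ADORA2B was thus the most abundant of the adenosine receptors in both groups, at 3.14 and 2.36 FPKM.

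Of the other nucleoside transporters, SLC29A2, a second equilibrative transporter, fell from 18.6 ± 1.34 to 11.8 ± 2.66 FPKM (SD, n = 3; log2 fold change -0.67, adjusted p = 0.0494, limma), as 1 of 3 tested, with a median log2 fold change of -0.39 over the list. It did not pass without any shNC library or without shScamp1 replicate 3. SLC29A3 and SLC29A4 did not pass, at 0.27 (adjusted p = 0.244) and -0.39 (adjusted p = 0.359).

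Genes for purine salvage and breakdown moved in both directions, with 2 rises and 3 falls among 19 tested and a median log2 fold change of -0.21. PNP, which cleaves the inosine that ADA forms, rose from 6.36 to 10.0 FPKM (log2 fold change 0.64, adjusted p = 0.0188, limma), with an adjusted p of 0.0581 to 0.0880 without any shNC library or shScamp1 replicate 3. The adenylate kinase AK4 fell by 0.53 on the log2 scale (adjusted p = 0.0128), the nucleotidase NT5C3B fell by 0.44 (adjusted p = 0.0354), and the cytosolic nucleotidase NT5C2 rose by 0.35 (adjusted p = 0.0459, limma). The abundant APRT, which salvages adenine, did not pass, at -0.45 (adjusted p = 0.0826). No gene of this list passed in all 6 fits that left out 1 library, and none passed without shNC replicate 2.

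In de novo purine synthesis, 5 of 13 tested genes fell and none rose, with a median log2 fold change of -0.18. IMPDH2, which makes the guanine nucleotide precursor, fell from 59.5 to 36.3 FPKM (log2 fold change -0.71, SE 0.07, adjusted p = 0.00192, limma) and passed in all 6 fits that left out 1 library. PRPS1 (-0.51, adjusted p = 0.0413), PFAS (-0.41, adjusted p = 0.0210) and PRPS2 (-0.34, adjusted p = 0.0264) also fell, and only 1 gene of the list passed without shNC replicate 1, 2 or 3 or without shScamp1 replicate 1 or 3. ATIC and GMPS did not pass, with adjusted p of 0.607 and 0.773.

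Downstream of the receptor, 2 of 22 tested genes of Gs and cAMP signalling rose and 3 fell, with a median log2 fold change of -0.07. The phosphodiesterase PDE4D (0.50, adjusted p = 0.0333) and the cAMP-responsive PER1 (0.40, adjusted p = 0.0362) rose, and the adenylyl cyclase ADCY3 (-0.37, adjusted p = 0.0234) and PDE4A (-0.32, adjusted p = 0.0373) fell in limma. None of the 22 passed without shNC replicate 1, 2 or 3 or without shScamp1 replicate 3, and 1 passed without shScamp1 replicate 1. GNAS, the Gs alpha subunit, and PRKAR1A were at adjusted p of 0.335 and 0.166.

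**Figure D4:**
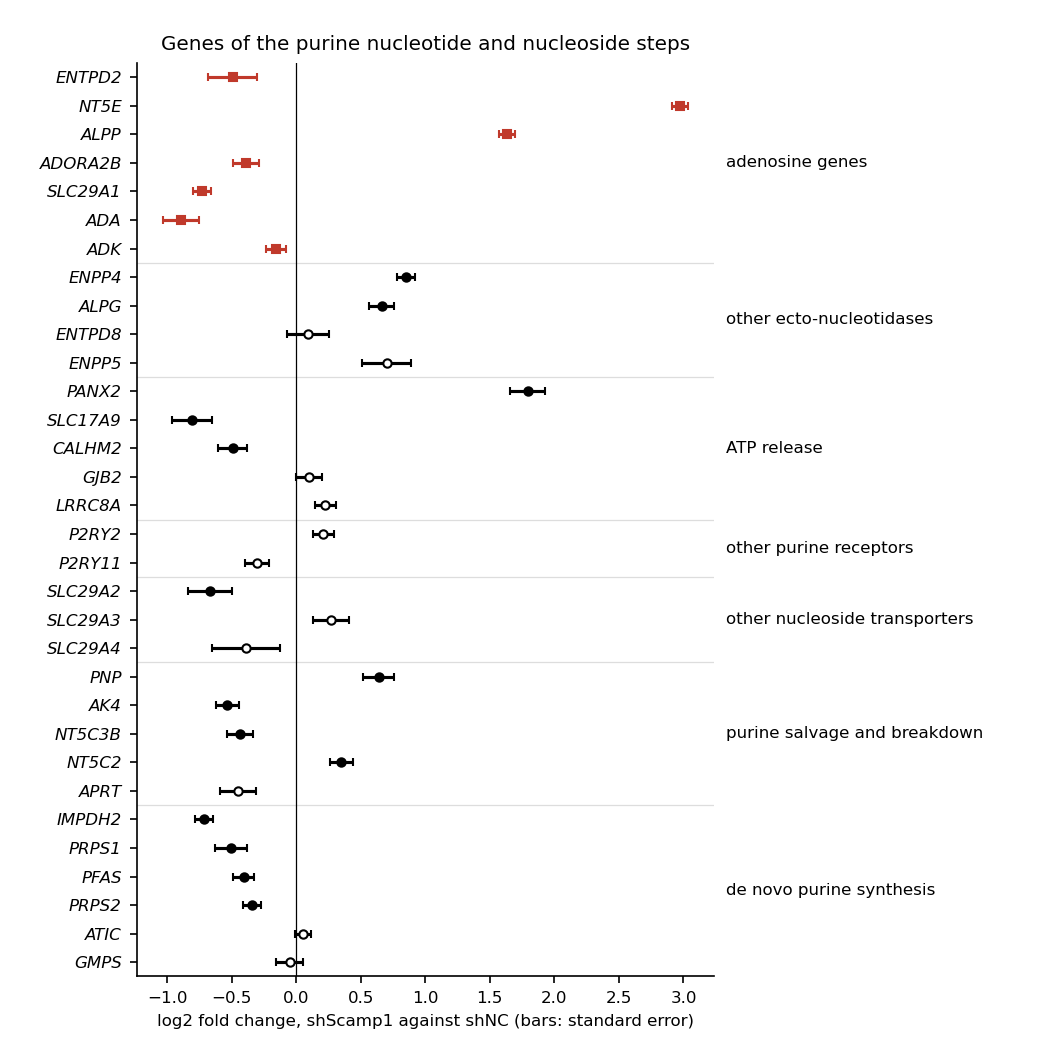
Log2 fold changes of shScamp1 over shNC with their standard errors, for the 7 tested adenosine genes (red squares) and genes named in the text from 6 other lists, with filled circles for genes that passed and open circles for those that did not. ENTPD1 (-0.41) and PANX1 (0.13), also named in the text, are not drawn. The 4 named genes of purine synthesis that passed, from -0.71 to -0.34, lie below 0.

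The genes whose pattern over the 6 libraries was most like that of NT5E were HAS2, which makes hyaluronan, PLAT, the tissue plasminogen activator, the membrane serine protease TMPRSS11E, and the interferon-induced IFI6 and MX1. Likeness was the root mean square difference of log2 values centred on the shNC mean, among 6576 protein-coding genes averaging 5 FPKM or more, and was 0.149, 0.176, 0.262, 0.280 and 0.317. HAS2 went from 1.08 to 9.51 FPKM, PLAT from 0.981 to 9.54, TMPRSS11E from 2.69 to 25.1, IFI6 from 45.4 to 287 and MX1 from 2.89 to 17.2. Since values were centred on the shNC mean, the measure mostly follows the size of the difference between the groups. The log2 fold changes of these genes were 3.03, 3.16, 3.21, 2.65 and 2.53, against 2.97 for NT5E. That difference was known when NT5E was chosen, and the libraries are few, so that the ranking is only a description.

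On the chromosomes, 92 tested protein-coding genes had their midpoint within 500 kb of the midpoint of one of the 10 genes. Of these, 10 rose and 8 fell, where 8.82% and 5.17% of all genes tested did. Near NT5E neither SNX14 (77.1 kb between midpoints, log2 fold change 0.18, adjusted p = 0.255) nor SYNCRIP (153 kb between midpoints, 0.12, adjusted p = 0.374) passed. Near ALPP, ALPG rose and SNORC fell (-0.71, adjusted p = 0.0311). Near ADORA2B, which was lower, TRIM16 (1.03, adjusted p = 0.00178), CDRT1 (1.34) and AC005324.3 (1.604) rose. Near ADA, SERINC3 rose (0.87) and PABPC1L (-0.70) and STK4 (-0.38) fell. Near SLC29A1, C6orf223 fell (-1.04, adjusted p = 0.000660). Near ENTPD3, RPL14 fell (-0.46). Near ENTPD2, in a region of 41 tested genes, CLIC3, CYSRT1, MAN1B1, RNF224 (1.39) and SLC34A3 (1.27) rose and NSMF, NRARP and UAP1L1 fell. Of these 18, 7 passed in all 6 fits that left out 1 library, namely TRIM16, SERINC3, C6orf223, RNF224, SLC34A3, NSMF and NRARP. The number that passed was 8 to 10 without any 1 shNC library or shScamp1 replicate 3 and 35 without shScamp1 replicate 2.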

How the data were processed

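RNA-seq of NCI-N87 cells was analysed for 3 shNC and 3 shScamp1 libraries, grouped by title. The authors deposited FPKM per gene and library, with gene lengths; the submitters' processing notes name HISAT2 2.0.5, featureCounts 1.5.0-p3, DESeq2 1.20.0 and hg38, without roles, and counting by strand is not given in the sources used here. All gene coordinates equalled GENCODE 29 (GRCh38). FPKM times length was a whole multiple of 1 step in 100% of values above 0 (tolerance 0.01), which gave reads on genes (15064905 to 15988700 in shNC, 14311769 to 14667628 in shScamp1). A read on 1 kb was worth 0.0600 to 0.0647 FPKM in shNC and 0.0683 to 0.0730 in shScamp1. The deposited scale was not exactly in inverse proportion to the reads on genes, and its origin was not examined. Relative to reads on genes, it set values slightly higher in every shScamp1 library than in any shNC library. No alternative scaled to reads on genes alone, so that the part of this in small changes was not tested. Depth limits genes with few reads, and a floor of 3 reads covers counting error only.

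limma 3.58.1 (R 4.3.3; lmFit, eBayes with trend) was run on log2(FPKM + 0.1), which understates changes of low genes, for the 15556 genes averaging 0.5 FPKM or more, with Benjamini-Hochberg adjustment over all of them. The method was tested on simulated data. The members and gene lists were chosen with earlier results of these data known. Named genes were the 10 members, SCAMP1, per list up to 4 that passed with the largest absolute log2 fold change and up to 2 that did not with the highest mean FPKM, the 5 genes most like NT5E, and neighbours within 500 kb that passed, though not all of these are given. ENTPD1, PANX1, the other adenosine receptors, the neighbours of NT5E and the markers named were added after values were seen. RefSeq promoters (GRCh38.p14) matched 10 of 10 members. Alternatives were the pseudocount, filter, scaling, gene set, voom on recovered reads, no trend, the replicate block and leaving out each library.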

Additional observations from a re-analysis of the deposited data

How the results depend on the processing

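All tested members kept their direction under every alternative run. The log2 fold change of NT5E ran from 2.81 (pseudocount 1) to 2.99, and that of ADA was -0.70 with pseudocount 1. Of 2177 genes that passed, leaving out 1 library gave 808 to 4330, with 4330 without shScamp1 replicate 2. Among members the range was 3 to 5, among the other nucleotidases 1 to 2, ATP release 1 to 6, purine receptors 0 to 1, transporters 0 to 1, salvage and breakdown 0 to 8, purine synthesis 1 to 8, Gs and cAMP 0 to 7, hypoxia 0 to 5, GPI-anchored proteins 7 to 18, and neighbours 8 to 35. The share of NT5E differed by 17.6 to 18.3 points. The cause was not tested. No clear pairing by replicate number was seen: deviations of same-numbered libraries correlated at -0.0351, 0.0325 and 0.0668. Not every library correlated best with its own number. With 3 libraries per group, these values cannot exclude pairing. With the replicate block 958 genes passed, with ATP release at 1, transporters 0, salvage 1, purine synthesis 1, Gs and cAMP 0, hypoxia 0 and neighbours 11. With voom on recovered reads 4 members, without ADORA2B, and 4 nucleotidases, 9 salvage and 5 hypoxia genes passed. With protein-coding genes only it was 8 salvage and 5 hypoxia genes. Without a filter it was 0 transporters, 2 salvage, 1 Gs and cAMP and 1 hypoxia gene. Without a trend it was 0 transporters, 3 salvage, 2 purine synthesis and 1 hypoxia gene. A window of 1000 kb held 158 tested neighbours, of which 28 passed. Without ALPP, ALPI and ALPG, the share of NT5E among the remaining phosphatases differed by 1.98 points, against 17.96 with them. The genes then left beside NT5E are ALPL, near 0, and ACPP, at 0.0716 to 0.310 FPKM, so that NT5E was nearly the whole sum in both groups and this value says nothing of the stability of the share.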

Other observations

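NT5E and ALPP are GPI-anchored, and of 24 other tested genes for GPI-anchored surface proteins 5 rose and 2 fell, with a median log2 fold change of 0.26. CEACAM6, a cell adhesion molecule, rose from 151 ± 1.71 to 387 ± 35.8 FPKM (SD, n = 3; log2 fold change 1.35, adjusted p = 0.000603, limma), and CD24, a sialoglycoprotein, from 6.08 to 14.6 FPKM (1.25, adjusted p = 0.000685). CEACAM5 (0.83, adjusted p = 0.00123) and the serine protease PRSS8 (0.76, adjusted p = 0.00340) also rose. The 7 that passed did so in all 6 fits without 1 library, and 18 passed without shScamp1 replicate 2. The abundant BST2 and MSLN did not pass, with adjusted p of 0.477 and 0.124.

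Of 11 tested hypoxia-response genes 2 rose and 1 fell, with a median log2 fold change of 0.19. HIF1A, the oxygen-regulated factor, rose from 28.3 to 40.1 FPKM (0.50, adjusted p = 0.0145, limma), NDRG1 rose (0.27, adjusted p = 0.0453) and P4HA1 fell (-0.45, adjusted p = 0.0410). None of the 11 passed without shNC replicate 1, 2 or 3 or without shScamp1 replicate 3. EPAS1 and ARNT were at adjusted p of 0.115 and 0.172.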
